A study of Homo sapiens with 32 samples.

Results

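The fatty acid oxidation genes described here were CPT1A, ACADVL, ACADM, ACADS, HADHA, EHHADH, ECI1, DECR1 and HSDL2, 9 of 20037 protein-coding genes of the RefSeq annotation of GRCh38. They were taken by name, and a peak was assigned to a gene when it overlapped the gene body by at least 1 bp. Over the 16 lists of called N6-methyladenosine (m6A) peaks, 240 of 474004 peaks fell in these genes, 150 in 786-O and 90 in RPTEC. The study had itself picked HSDL2, ECI1, EHHADH, DECR1 and ACADVL on these samples, so their direction with SETD2 loss is not independent evidence. It named them for raised m6A in 786-O, so more peaks in 786-O than in RPTEC are not independent evidence either.

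Methylated RNA immunoprecipitation sequencing (MeRIP-seq) enriches RNA fragments carrying m6A with an antibody and calls a peak where the enriched library stands above its input. SETD2 is the histone methyltransferase that trimethylates lysine 36 of histone H3, and the study asked how m6A is distributed when it is lost. In 786-O, a clear cell renal carcinoma (ccRCC) line, and in RPTEC, an hTERT-immortalized renal proximal tubule line, 4 untreated lines were profiled with 2 libraries each: the wild-type (WT) parent, the CRISPR/Cas9 knockout clones SETD2KO-1 and SETD2KO-2, and SETD2KO-1R, a clone of SETD2KO-1 carrying a full-length FLAG-tagged SETD2 transgene. Below, "SETD2-expressing" means WT or SETD2KO-1R, which gives 4 SETD2KO and 4 SETD2-expressing libraries per cell line. Each knockout and rescue line was 1 clone, and no source states whether replicates were separate cultures, so p-values measure only the spread between these libraries, which may be technical. The run names of the 2 cell lines differed, and cell line and preparation cannot be told apart. The lists held no read counts, so depth was unknown, and no strand, so reads from overlapping genes cannot be told apart.

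Libraries held 25710 to 39670 peaks in 786-O and 19249 to 31207 in RPTEC. SETD2 itself carried 4 to 10 peaks under SETD2KO and 7 to 10 with SETD2 present in 786-O, and 4 to 6 against 7 to 11 in RPTEC, which does not check the knockout because a peak list does not show the edit. Of 13 kidney tubule and ccRCC markers 7 to 8 had a peak in each library, with LRP2, AQP1, MME, SLC34A1 and CA9 at 0 in every one. Of 5 epithelial markers 2 to 4 had a peak and CDH1 had none, and of 3 mesenchymal markers 2 to 3 did. Of 5 markers of other cell types only GFAP was called, in 2 libraries of 786-O and 6 of RPTEC.

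Fatty acids are activated to acyl-CoA, carried into mitochondria by the carnitine shuttle and shortened in repeated turns of dehydrogenation, hydration, a further dehydrogenation and thiolysis. Peroxisomes run a related cycle, and auxiliary enzymes move or remove double bonds so that unsaturated chains can enter. Proximal tubule cells rely on this pathway for energy, and ccRCC is known for storing lipid in place of burning it.

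CPT1A and HADHA had no peak in any library. CPT1A, the carnitine palmitoyltransferase that controls mitochondrial import, lies on chromosome 11 from 68754620 to 68844277 and had 0 peaks in each of the 16 libraries. HADHA, the alpha subunit of the mitochondrial trifunctional protein, which hydrates and dehydrogenates long chains, lies on chromosome 2 from 26190635 to 26244632 and also had 0 in all 16. Peaks were called nearby: the nearest lay 3835 to 141500 bp from CPT1A and 1985 to 67933 bp from HADHA, depending on the library. No peak in any library was the state of 6617 of the 20037 protein-coding genes (33.0%), and it shows only that nothing was called, not that the transcript or the mark was absent. The other 7 genes all had peaks in both cell lines, as the plot of peaks by library shows.

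**Figure D1:**
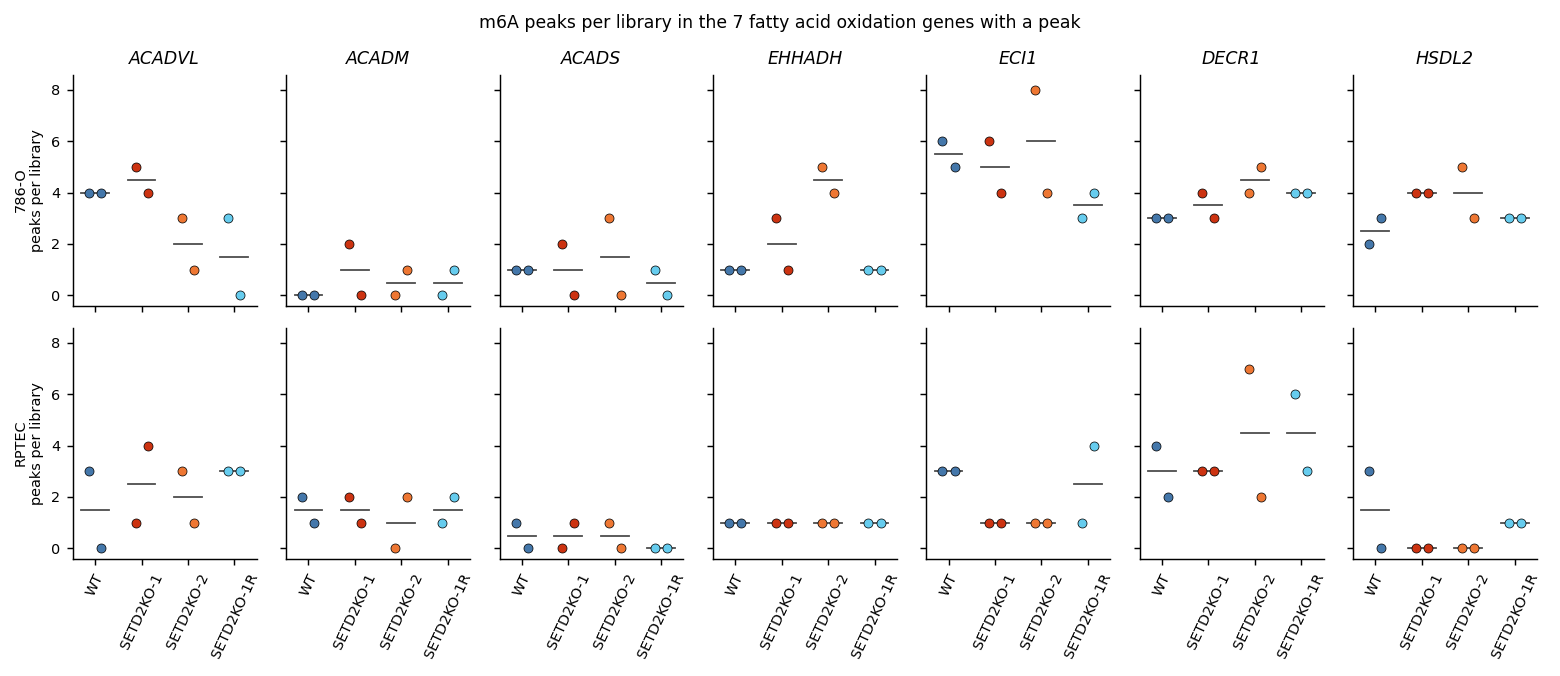
Peaks called per library (vertical axis) in the body of each of the 7 fatty acid oxidation genes with a peak, in 786-O (upper panels) and RPTEC (lower panels). Each circle is a library, 2 per line, and the bar is their mean. In 786-O, EHHADH reached 5 peaks in SETD2KO-2 against 1 in every SETD2-expressing library, and in RPTEC it had 1 in every library. HSDL2 in RPTEC was at 0 in all 4 SETD2KO libraries and in 1 WT library.

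The acyl-CoA dehydrogenases open each turn of the cycle, ACADVL on very long, ACADM on medium and ACADS on short chains. ACADVL (chromosome 17 from 7217125 to 7225266, 8142 bp) had 4 and 4 peaks in the WT libraries of 786-O, 5 and 4 in SETD2KO-1, 3 and 1 in SETD2KO-2, and 3 and 0 in SETD2KO-1R. In RPTEC it had 3 and 0 in WT, 1 and 4 in SETD2KO-1, 3 and 1 in SETD2KO-2, and 3 and 3 in SETD2KO-1R. Replicates of 1 line thus differed by up to 3 peaks. The SETD2KO and SETD2-expressing libraries overlapped in both cell lines.

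Of 5 ACADVL regions 3 were called in both cell lines and 2 only in 786-O, from 7218853 to 7219144 in both WT libraries and from 7221754 to 7222073 in 1 library. A region from 7219592 to 7220624, called in 6 of 8 libraries of 786-O, held its highest mean score percentile there, 76.1, where 100 is the highest-scoring peak of a library's list. In RPTEC the overlapping region from 7219644 to 7220648 was called in 5 libraries at a mean of 70.0. The highest mean in RPTEC, 83.9, belonged to a region from 7222373 to 7222692 called in 3 libraries. Toward the 3' end a region from 7223447 to 7224516 was called in 7 of the 8 RPTEC libraries at a mean percentile of 19.3. The region from 7219592 to 7220624 also overlaps DLG4, a neighbor transcribed from the other strand. From the RefSeq promoter windows (GRCh38.p14) it takes in the 250 bases before an internal annotated start at chr17:7219688-7219937, read on the plus strand. They are shown because 10 libraries, 6 of 786-O and 4 of RPTEC, called a peak over them and 10 summits lay inside. Capitals mark GGAC, the core of the m6A consensus.
ACADVL, internal start: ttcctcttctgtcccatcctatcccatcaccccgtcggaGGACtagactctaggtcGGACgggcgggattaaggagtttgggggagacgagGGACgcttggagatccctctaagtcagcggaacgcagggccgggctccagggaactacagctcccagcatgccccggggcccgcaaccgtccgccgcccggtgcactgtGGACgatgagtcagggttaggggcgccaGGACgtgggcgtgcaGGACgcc
GGAC occurred 6 times and its reverse complement GTCC 2 times. Of 35116 RefSeq windows trimmed to the same length, 59.0% held GGAC and 59.5% held GTCC, so holding the motif was common in windows of this kind, and the match is a description of the letters only.

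ACADM (chromosome 1 from 75724709 to 75763679) had 0 and 0 peaks in WT, 2 and 0 in SETD2KO-1, 0 and 1 in SETD2KO-2, and 0 and 1 in SETD2KO-1R of 786-O. In RPTEC it had 2 and 1, 2 and 1, 0 and 2, and 1 and 2 in the same order. It was thus called in 3 libraries of 786-O and 7 of RPTEC, always with a weak peak: the percentile of its highest-scoring peak was between 3.52 and 28.9 in 786-O and between 5.85 and 35.6 in RPTEC. The summits of all 11 RPTEC peaks lay between 81.4% and 88.5% of the way from the annotated 5' end. A region from 75756868 to 75757729 was found by 3 SETD2KO libraries and 1 WT library of RPTEC (exact Fisher p = 0.486). In 786-O the highest mean percentile, 22.5, was that of a region from 75756617 to 75757244 called in 1 library.

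ACADS (chromosome 12 from 120725826 to 120740008) had 1 and 1 peaks in WT, 2 and 0 in SETD2KO-1, 3 and 0 in SETD2KO-2, and 1 and 0 in SETD2KO-1R of 786-O. In RPTEC the counts were 1 and 0, 0 and 1, 1 and 0, and 0 and 0. Both SETD2KO clones of 786-O had a library with peaks and a library without. A region from 120732392 to 120733239 was called in 4 libraries of 786-O, 2 of each SETD2 status, at a mean percentile of 43.1, with summits within 44 bp of each other. In RPTEC 1 library called the same place, from 120732803 to 120733222, at percentile 31.4.

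EHHADH, the peroxisomal bifunctional enzyme that hydrates and dehydrogenates the shortened chain, lies on chromosome 3 from 185190624 to 185254049 and is 63426 bp long. It had 1 and 1 peaks in WT, 3 and 1 in SETD2KO-1, 5 and 4 in SETD2KO-2, and 1 and 1 in SETD2KO-1R of 786-O, and 1 in each of the 8 RPTEC libraries. The constant peak was the same in both cell lines. It formed a region from 185192995 to 185193726 in 786-O and from 185192998 to 185193664 in RPTEC, called in 8 of 8 libraries of each, at a mean percentile of 52.9 and 40.0. The medians of its summits in the 2 cell lines were 168 bp apart.

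The other 9 EHHADH peaks of 786-O were all in SETD2KO libraries: 2 in SETD2KO-1 replicate 1, 0 in its replicate 2, 4 in SETD2KO-2 replicate 1 and 3 in its replicate 2. They formed 6 regions 32.7 to 55.2 kb from the summits of the constant peak, and no region was called in more than 2 libraries. Most were weak, with a median percentile of 20.6, and only 1 of the 9 stood above the middle of its list, at 79.3 in a region from 185248490 to 185248769 called in SETD2KO-2 replicate 1. A region from 185246539 to 185246929, called in SETD2KO-1 replicate 1 and SETD2KO-2 replicate 2, also overlaps the pseudogene EIF2S2P2.

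ECI1, the mitochondrial isomerase that shifts double bonds of unsaturated chains into the position the cycle can use, lies on the minus strand of chromosome 16 from 2239402 to 2251587. It had 6 and 5 peaks in WT, 6 and 4 in SETD2KO-1, 8 and 4 in SETD2KO-2, and 3 and 4 in SETD2KO-1R of 786-O. In RPTEC it had 3 and 3 in WT, 1 and 1 in SETD2KO-1, 1 and 1 in SETD2KO-2, and 1 and 4 in SETD2KO-1R. All 4 SETD2KO libraries of RPTEC thus had 1 peak, and the only SETD2-expressing library as low was SETD2KO-1R replicate 1.

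That remaining peak lay in a region called everywhere. It ran from 2241195 to 2242906 in 786-O and from 2241774 to 2242875 in RPTEC, was called in 8 of 8 libraries of each, and overlaps ECI1-AS1. A neighboring region from 2240110 to 2240592 was called in 7 libraries of 786-O. In RPTEC it ran from 2240130 to 2240563 and was called in both WT libraries, SETD2KO-1R replicate 2 and no SETD2KO library (exact Fisher p = 0.143). A region from 2243799 to 2244331 was called in 7 libraries of 786-O and none of RPTEC. The highest mean percentiles, 92.9 in 786-O and 96.8 in RPTEC, belonged to a region starting at 2246958 and ending at 2247365 in 786-O and 2247334 in RPTEC, called in 3 and 2 libraries. In 786-O a region from 2243258 to 2243634 was found by 3 SETD2KO libraries and WT replicate 1 (exact Fisher p = 0.486).

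At the ECI1 start a region from 2251368 to 2251741 was called in both WT libraries, SETD2KO-1 replicate 1 and SETD2KO-2 replicate 1 of 786-O, with percentiles from 79.4 to 89.8, and in no RPTEC library. It also overlaps LOC107984839. Its bases from RefSeq (GRCh38.p14, minus strand) are shown because the region reached past the annotated start, first the 154 bases before it at chr16:2251588-2251741 and then the first 30 bases of the gene at chr16:2251558-2251587.
ECI1, before the start: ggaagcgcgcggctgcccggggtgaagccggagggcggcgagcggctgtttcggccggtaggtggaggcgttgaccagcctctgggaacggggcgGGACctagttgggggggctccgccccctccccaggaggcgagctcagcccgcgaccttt
ECI1, first bases: atcccgcgcgttgcggtcaagatggcgctg
GGAC, in capitals, occurred 1 time before the start and 0 times after it, and GTCC did not occur in either. Among RefSeq windows of the same length, 43.1% held GGAC in the longer stretch and 11.0% in the shorter. None of the 4 summits lay before the start and 1 lay in the 30 bases.

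DECR1, the mitochondrial reductase that removes the conjugated double bonds left by polyunsaturated chains, lies on chromosome 8 from 90001477 to 90053633. It had 3 and 3 peaks in WT, 4 and 3 in SETD2KO-1, 4 and 5 in SETD2KO-2, and 4 and 4 in SETD2KO-1R of 786-O. In RPTEC it had 4 and 2, 3 and 3, 7 and 2, and 6 and 3. In 786-O every library had 3 to 5, and in RPTEC the replicates of SETD2KO-2 alone spanned the whole range of 2 to 7. Its region with the highest mean percentile was at the lower-coordinate end, from 90001326 to 90002084 in 786-O and from 90001341 to 90002048 in RPTEC, called in 8 of 8 libraries of each at a mean percentile of 91.1 and 92.1. In 786-O regions from 90005361 to 90007491 and from 90051050 to 90051720 were called in 8 and 7 libraries.

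HSDL2, a peroxisomal member of the short-chain dehydrogenase family whose substrate is not settled, lies on chromosome 9 from 112380108 to 112472405 and is 92298 bp long. It had 2 and 3 peaks in WT, 4 and 4 in SETD2KO-1, 5 and 3 in SETD2KO-2, and 3 and 3 in SETD2KO-1R of 786-O. In RPTEC it had 3 and 0 in WT, 0 in each of the 4 SETD2KO libraries, and 1 and 1 in SETD2KO-1R. Every library of 786-O and 3 of the 8 RPTEC libraries had a peak.

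HSDL2 peaks were scattered. Of its 13 regions in 786-O, 9 were called in 1 library each, and none of its 5 regions in RPTEC was called in more than 1. A region from 112397843 to 112398596 was called in 6 libraries of 786-O, 3 of each SETD2 status, and none of RPTEC. A region from 112430589 to 112431438 was found by each of the 4 SETD2KO libraries and by WT replicate 2, with summits within 89 bp of each other (exact Fisher p = 0.143). The highest mean percentile in 786-O, 65.3, was that of a region from 112405923 to 112406233 called in 2 libraries, and in RPTEC, 63.6, of one from 112471200 to 112471451 called in 1, which also overlaps HSDL2-AS1. The map of summits sets these calls beside those of EHHADH and ECI1.

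**Figure D2:**
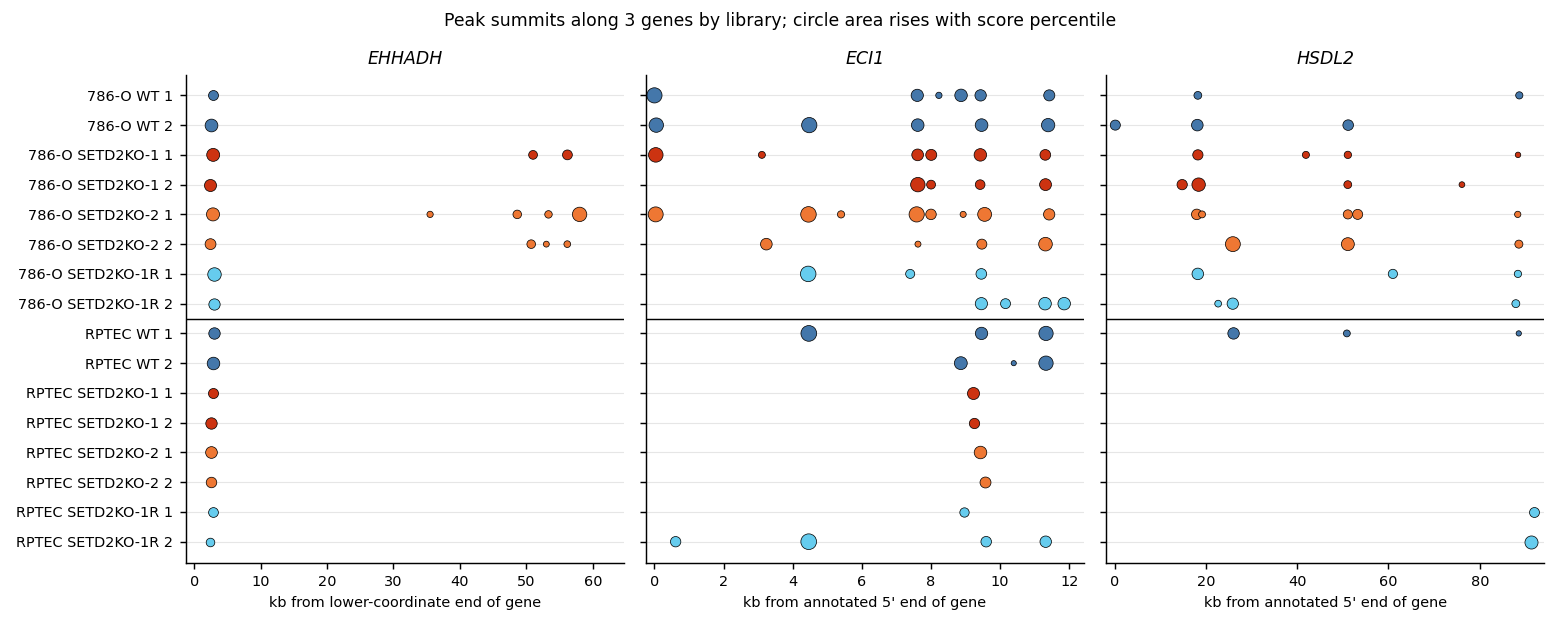
Position of every peak summit (horizontal axis, kb from the end of the gene named under each panel) in EHHADH, ECI1 and HSDL2, with 1 line of circles per library, 786-O above and RPTEC below. Circle area rises with the score percentile in the library's list. EHHADH held 1 constant peak in all 16 libraries and 9 further peaks in SETD2KO libraries of 786-O, while HSDL2 had 27 peaks in 786-O and 5 in RPTEC.

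Counted as regions, made by merging overlapping peaks within each cell line, the genes held 47 regions in 786-O and 26 in RPTEC. In 786-O, 21 were called in 1 library, as were 38.0% of regions in all protein-coding genes, and 7 in at least 7 of the 8, a rule met by 16.5% of all such regions. In RPTEC the counts were 10, against 40.4%, and 4, against 13.8%. The 7 lay in EHHADH (1), ECI1 (3) and DECR1 (3), and the 4 in ACADVL, EHHADH, ECI1 and DECR1. Regions called in at least 3 SETD2KO libraries and at most 1 SETD2-expressing library numbered 2 in 786-O, those of ECI1 and HSDL2 given above, against 4.44% of all regions, and 1 in RPTEC, that of ACADM, against 2.27%. The reverse pattern numbered 0 in 786-O, against 2.48%, and 1 in RPTEC, that of ECI1, against 4.14%. These shares of the genes' regions were near the background. No region passed the exact Fisher test after Benjamini-Hochberg adjustment in either cell line, among all 65991 regions of 786-O, of which 285 had an unadjusted p under 0.05, and 59064 of RPTEC, of which 241 did. With 4 against 4 libraries the smallest p this test allows is 0.0286.

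SETD2 loss in 786-O was the first comparison. The mean number of peaks was above that of the SETD2-expressing libraries in 7 of the 7 genes with a peak, and none passed the test. Among all 12430 genes tested 45.0% were above, 40.2% below and 1837 equal. For the 7 genes the count above was 4 with 2 below when lists were held to equal length or to their better-scoring 50%, 5 with 2 below (ECI1 and DECR1) per peak on the same chromosome, and 5 with 1 below against WT alone. It was 6 with 1 below when SETD2KO-1 replicate 1, SETD2KO-2 replicate 1 or SETD2KO-1R replicate 2 was left out. The median difference was 0.5 peaks over the 7 genes and 0 over all genes. EHHADH had 3.25 ± 1.71 peaks (SD, n = 4) in SETD2KO and 1 in every SETD2-expressing library, a difference of 2.25 (exact permutation p = 0.143). HSDL2 had 4 ± 0.816 against 2.75 ± 0.5, a difference of 1.25 (n = 4 each, exact permutation p = 0.114). ECI1 differed by 1 (5.5 ± 1.91 against 4.5 ± 1.29, n = 4 each, exact permutation p = 0.543), and ACADVL, ACADM, ACADS and DECR1 by 0.5 each with p from 0.657 to 0.8 by the same exact test.

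The adjusted p was 1 for all 7. No gene of the 12430 passed the Benjamini-Hochberg adjustment, and 301 had an unadjusted p under 0.05. With 4 against 4 libraries in either cell line, the smallest p the exact permutation test allows is 0.0286. A gene could pass only if a large share of all genes reached that value, so the lack of passes does not show that peaks were unchanged. In 0 of the 7 genes did all 4 SETD2KO libraries stand above all 4 others, which 1.52% of genes did, and in 0 below, which 0.901% did. EHHADH came to stand apart without SETD2KO-1 replicate 2 (a difference of 3), and HSDL2 without SETD2KO-2 replicate 2 (1.58), each with an exact permutation p of 0.0286 and an adjusted p of 1 and 0.821.

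By length under peaks the groups stood apart in EHHADH and HSDL2, which they did not by number. Peaks covered 698 to 2509 bp of EHHADH in SETD2KO and 587 to 693 bp in SETD2-expressing libraries, means of 1627 ± 740 and 640 ± 43.6 bp. In HSDL2 they covered 1409 to 2396 bp against 1102 to 1304 bp, means of 2039 ± 434 and 1163 ± 95.1 bp. The groups did not overlap in either gene (exact permutation p = 0.0286, n = 4 each, adjusted p = 0.547 for both), a pattern that 3.28% of all genes showed in this direction.

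Chromosome 9, which carries HSDL2, held 5.92% to 6.21% of all peaks of 786-O under SETD2KO and 4.48% to 5.04% with SETD2 present. Chromosome 8, which carries DECR1, held 4.22% to 4.45% against 3.45% to 3.74%. Per 1000 peaks on chromosome 9, HSDL2 had 1.26 and 1.65 in WT, 1.97 and 1.88 in SETD2KO-1, 2.05 and 1.75 in SETD2KO-2, and 2.01 and 2.61 in SETD2KO-1R, so that the highest value was that of a SETD2-expressing library. The difference on this scale was 0.0324 (exact permutation p = 0.914, n = 4 each). DECR1, at 0.5 peaks unscaled, turned to -0.455 (exact permutation p = 0.543), ECI1, on chromosome 16, to -0.129, and EHHADH, on chromosome 3, stayed at 1.18 (p = 0.143). Covered length per 1000 peaks of the same chromosome, a scaling chosen after seeing the data, gave an exact permutation p of 0.0857 for both EHHADH and HSDL2, with overlapping groups.

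In RPTEC the genes did not share a direction. SETD2KO had more peaks in 1 of the 7 genes, fewer in 3 and the same mean in 3, with a median difference of 0, while over all 12185 genes tested 30.5% were above and 53.6% below, with a median of -0.25. ECI1 had 1 peak in each SETD2KO library against 2.75 ± 1.26 (SD, n = 4), a difference of -1.75 (exact permutation p = 0.143). HSDL2 had 0 against 1.25 ± 1.26, a difference of -1.25 (n = 4 each, exact permutation p = 0.143). ACADM differed by -0.25 and ACADS by 0.25, and ACADVL, EHHADH and DECR1 by 0. Peaks covered 278 to 474 bp of ECI1 in SETD2KO and 305 to 1878 bp in SETD2-expressing libraries, a difference of -854 bp (exact permutation p = 0.0857, n = 4 each).

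None of the 7 passed here either, with an adjusted p of 1 for all 7, and no gene of the 12185 did, 295 having an unadjusted p under 0.05. In 0 of the 7 genes did the groups stand apart, upward as in 1.01% of genes or downward as in 1.41%. ECI1 came to stand apart downward without SETD2KO-1R replicate 1 (a difference of -2.33), and HSDL2 without WT replicate 2 (-1.67), each with an exact permutation p of 0.0286 and an adjusted p of 0.909 and 0.810. Without WT replicate 1, the only RPTEC library with 3 HSDL2 peaks, the HSDL2 difference was -0.667. Chromosome 9 held 4.40% to 4.53% of peaks in the SETD2KO and 4.23% to 4.57% in the SETD2-expressing libraries of RPTEC.

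Whether the SETD2KO effect itself differed between 786-O and RPTEC was tested by permuting SETD2 status within each. It was largest in ECI1 at 2.75 peaks (exact permutation p = 0.0755), then HSDL2 at 2.5 (p = 0.00816) and EHHADH at 2.25 (p = 0.143), and 0.75 or less in the other 4. After adjustment of the exact p-values over 13420 genes none passed (adjusted p = 1 for all 7), and 485 genes had an unadjusted p under 0.05. For HSDL2 it was 1.00 per 1000 peaks of chromosome 9 (exact permutation p = 0.110), and 0.75 (p = 0.433) when each library was held to its 19249 highest-scoring peaks.

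Between the cell lines, ECI1 and HSDL2 carried more peaks in 786-O than in RPTEC. HSDL2 had 2 to 5 peaks per library in 786-O and 0 to 3 in RPTEC, means of 3.38 ± 0.916 and 0.625 ± 1.06 (SD, n = 8 each), a difference of 2.75 (exact permutation test, adjusted p = 0.028). ECI1 had 3 to 8 and 1 to 4, means of 5 ± 1.60 and 1.88 ± 1.25, a difference of 3.12 (exact permutation test, adjusted p = 0.041, n = 8 each). The ranges overlapped in both genes. These means pool both SETD2 statuses, and the gap was wider among SETD2KO libraries. In 786-O and RPTEC, HSDL2 means were 4 and 0 in SETD2KO, 2.75 and 1.25 in SETD2-expressing and 2.5 and 1.5 in WT libraries. For ECI1 they were 5.5 and 1, 4.5 and 2.75, and 5.5 and 3 in the same order. These were 2 of 7 genes higher in 786-O, against 3.44% of 13420 genes tested, and 0 of 7 higher in RPTEC, against 1.92%. The study had picked both genes for raised m6A in 786-O, so this share is not independent of the pick. The 8 libraries of a cell line come from 4 related lines, so the test compares these libraries and not independent sources.

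The other 5 genes did not pass. EHHADH had means of 2.12 ± 1.64 and 1 (difference 1.12, adjusted p = 0.544), ACADVL 3 ± 1.69 and 2.25 ± 1.39 (0.75, adjusted p = 0.824) and ACADS 1 and 0.375 (0.625, adjusted p = 0.657), by the same exact permutation test with n = 8 each. ACADM was the only one with a lower mean in 786-O, 0.5 against 1.38 (-0.875, exact permutation test, adjusted p = 0.328, n = 8 each). DECR1 had 3.75 in both, with SDs of 0.707 and 1.83. The median difference was 0.75 over the 7 genes and 0.25 over all genes, of which 64.2% had the higher mean in 786-O, where lists were also longer. The histogram of differences shows where each gene lay.

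**Figure D3:**
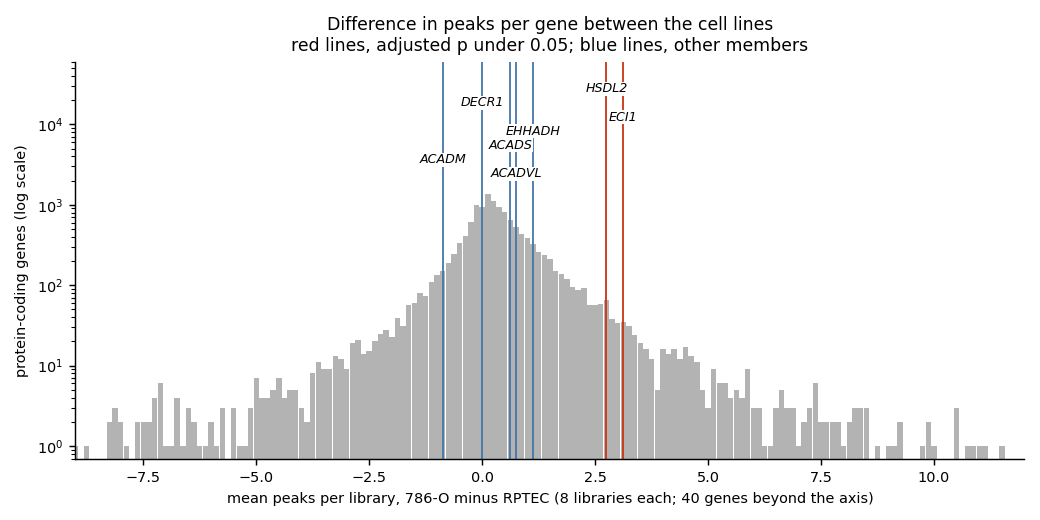
Number of protein-coding genes (vertical axis, log scale) by difference in mean peaks per library between 786-O and RPTEC (horizontal axis, 8 libraries each). Red lines are genes with an adjusted p under 0.05, HSDL2 at 2.75 and ECI1 at 3.12, and blue lines the other 5 genes with a peak, between -0.875 and 1.12. Of all genes tested, 96.1% lay below HSDL2 and 97.1% below ECI1.

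The call did not hold in every set of peaks. With each library held to 19249 peaks the difference was 0.375 in HSDL2 (adjusted p = 0.966) and 2.12 in ECI1 (adjusted p = 0.168), and among the better-scoring 50% of peaks it was 0.25 (adjusted p = 1) and 1.62 (adjusted p = 0.323), all by the exact permutation test. Per peak on the same chromosome HSDL2 still passed the exact test and ECI1 did not (adjusted p = 0.0708). With cell lines permuted within replicate number, HSDL2 again passed and ECI1 did not. ECI1 also lost the call when any of the 5 RPTEC libraries with 1 ECI1 peak was left out, namely SETD2KO-1 replicates 1 and 2, SETD2KO-2 replicates 1 and 2 and SETD2KO-1R replicate 1, with an adjusted p of up to 0.0517. HSDL2 kept it without any 1 of the 16 libraries (2.52 to 3.09 peaks, adjusted p from 0.0106 to 0.0385).

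Covered length gave 3 genes. HSDL2 had 1102 to 2396 bp under peaks in 786-O and 0 to 902 bp in RPTEC, without overlap, a difference of 1427 bp (exact permutation test, adjusted p = 0.00555). By the same exact test ECI1 differed by 1327 bp (adjusted p = 0.0132) and EHHADH by 550 bp (adjusted p = 0.0226). A pass in this direction was seen in 8.72% of all genes. The EHHADH difference lay mostly in SETD2KO libraries. Its means in 786-O and RPTEC were 616.5 and 583 bp in WT and 663 and 584.5 bp in SETD2KO-1R. They were 1188 and 571 bp in SETD2KO-1 and 2066 and 596 bp in SETD2KO-2.

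The rank of the best peak did not separate the cell lines for any of the 7 genes. The percentile of the highest-scoring HSDL2 peak in 786-O was 15.3 and 47.6 in WT, 34.9 and 67.4 in SETD2KO-1, 37.2 and 85.8 in SETD2KO-2, and 47.0 and 44.8 in SETD2KO-1R. In RPTEC it was 46.0 in WT replicate 1 and 32.0 and 63.6 in SETD2KO-1R. The RPTEC values lay inside the 786-O range. With libraries without a peak set to 0 the difference was 29.8 (exact permutation test, adjusted p = 0.165, n = 8 each), and over libraries with a peak alone it was 0.281. For ECI1 the percentile was 57.6 to 94.2 in 786-O and 26.9 to 97.0 in RPTEC (difference 21.5, exact permutation test, adjusted p = 0.291), for EHHADH 32.0 to 79.3 and 21.0 to 57.8 (14.9, adjusted p = 0.245), and for DECR1 59.9 to 99.6 and 80.0 to 98.3 (-0.197, adjusted p = 1). Over all genes 3.82% passed higher in 786-O and 2.47% higher in RPTEC. The heat map of percentiles shows the spread between replicates.

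**Figure D4:**
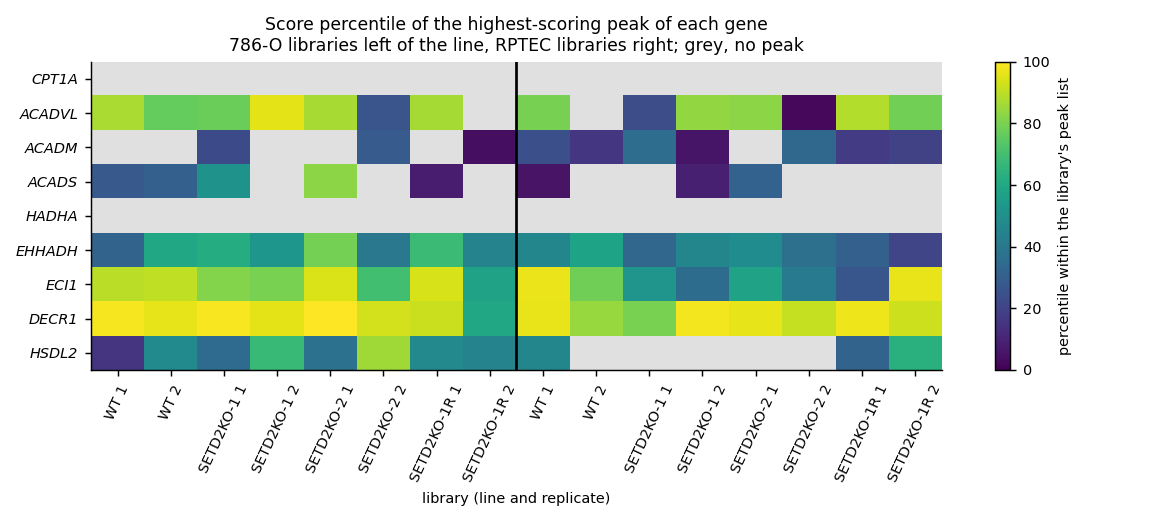
Score percentile (color, 0 to 100 within a library's list) of the highest-scoring peak of each of the 9 genes (vertical axis) in each library (horizontal axis, line and replicate), 786-O left of the line and RPTEC right. Grey marks a library without a peak, as for CPT1A and HADHA throughout. DECR1 was at 59.9 or above in all 16 libraries, and ACADM never passed 35.6.

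Merged over all 16 libraries, the genes held 51 regions, of which 18 were called in both cell lines, 28 only in 786-O and 5 only in RPTEC. HSDL2 gave 10 of the 28, and EHHADH and ECI1 6 each. Called in at least 6 libraries of 786-O and at most 2 of RPTEC were 2 regions, that of ECI1 from 2243799 to 2244331 and that of HSDL2 from 112397843 to 112398596, a pattern of 2.11% of regions in protein-coding genes. The reverse held for 0, against 0.918%. Over the 18 regions called in both cell lines the median summits of the 2 cell lines lay 8.5 to 412 bp apart. The distance was 53 bp in the DECR1 region at the lower-coordinate end, 38 bp in the ECI1 region called in all libraries and 8.5 bp in the high-ranking ECI1 region.

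Around these genes stood 49 other enzymes, carriers and regulators of mitochondrial and peroxisomal beta-oxidation, of which 41 had a peak. The 8 without any were ACSL5, ACSL6, CPT1C, SLC25A20, ACADL, ACOX2, ECI2 and ABCD2. With SETD2 loss in 786-O, 20 of the 41 had a higher mean, 14 a lower and 7 the same, with a median difference of 0, and none passed the adjustment. In 1, PPARA, the nuclear receptor that switches on fatty acid oxidation genes, the groups did not overlap, with 8 to 10 peaks in SETD2KO and 6 to 7 in SETD2-expressing libraries (exact permutation p = 0.0286, adjusted p = 1), as in 1.52% of all genes in this direction. By covered length the PPARA groups overlapped (exact permutation p = 0.0571). In RPTEC 10 of 36 had a higher mean, 17 a lower and 9 the same, and in 1, ETFB, a subunit of the flavoprotein that takes electrons from the acyl-CoA dehydrogenases, the groups stood apart, with 0 in every SETD2KO and 1 in every SETD2-expressing library (exact permutation p = 0.0286, adjusted p = 1), as in 1.41% of all genes in this direction.

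Between the cell lines 30 of the 41 had a higher mean in 786-O, 9 a lower and 2 the same, with a median difference of 0.5, and 2 passed, both higher in 786-O, against 3.44% of all genes. PPARA had 6 to 10 peaks in 786-O and 3 to 5 in RPTEC, means of 7.88 ± 1.64 and 3.62 ± 0.916 (difference 4.25, exact permutation test, adjusted p = 0.00831, n = 8 each). PPARGC1B, a coactivator of nuclear receptors, named here after its values were seen, had 1 to 4 and 0 to 1 (difference 1.88, exact permutation test, adjusted p = 0.028). ACOX3, a peroxisomal oxidase of branched chains, differed by 2.5 and did not pass (exact permutation test, adjusted p = 0.178). On the lower side stood ACAT1, a mitochondrial thiolase, at -1.38, ACSL4, which activates polyunsaturated chains, at -0.75, and CROT, which makes carnitine esters in peroxisomes, at -0.625 (exact permutation test, adjusted p = 0.178, 0.768 and 0.349). PPARA, HSDL2 and ECI1 differed in the same direction as 64.2% of all genes.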

How the data were processed

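MeRIP-seq IP libraries of 8 lines (2 cell lines, 4 lines each, 2 replicates) were analysed. Per the methods and the submitters' processing notes, fragmented total RNA with an E. coli RNA spike-in was enriched with an anti-m6A antibody, aligned with STAR to hg38, and peaks were called per library over input with MACS2; HTSeq is also named. The deposited lists give positions, summits and a score whose scale is not stated; the authors' score was used only as a percentile within a list. Score and other columns (start, end, summit) were used as deposited. Read counts were not used here, so no counting interval could be given.

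Peaks were assigned to GRCh38 RefSeq gene bodies (overlap of 1 bp or more). Differences in mean peaks per library, covered bp and score percentile were tested with two-sided exact permutation tests, regions with Fisher's exact test, and p-values were Benjamini-Hochberg adjusted over all protein-coding genes or regions tested (threshold 0.05). Scripts were tested on simulated data. Alternatives covered peak sets, assignment, scaling, clones and left-out libraries. Regions were named if called in at least 3 libraries of one SETD2 status and at most 1 of the other, in at least 7 of 8, or with a gene's highest mean percentile; other beta-oxidation genes if groups stood apart or among the 3 largest differences each way. A result that this rule names is not reported here. The genes and lists were chosen with earlier results of these data known. RefSeq promoter windows matched 7 of the 9 genes. Tests ran in SciPy 1.17.1 and NumPy 2.4.6 under Python 3.11.15, with pandas 2.3.3, and plots in Matplotlib 3.10.9.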

Additional observations from a re-analysis of the deposited data

Results flagged for a closer look

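Among the SETD2-expressing or SETD2KO libraries of a cell line, groups of 4, a single library was flagged as apart from the other 3 in 5 of 23 groups. Where 3 counts are tied the rule flags any library that differs, whatever the step, and all 5 groups were of this kind. The limit used is one that chance passes in about 1 in 20 groups of continuous values, and its rate for small tied counts such as these was not tested. ACADVL had 0 peaks in RPTEC WT replicate 2 against 3 in each of the other SETD2-expressing libraries. ACADM had 1 peak in 786-O SETD2KO-1R replicate 2 and 0 in the others, and ACADS had 0 in that same library and 1 in the others. ACADS had 1 peak in RPTEC WT replicate 1 and 0 in the others. HSDL2 had 2 peaks in 786-O WT replicate 1 and 3 in the others. All are steps of 1 peak except that of ACADVL.

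For HSDL2 the SETD2KO effect in 786-O exceeded that in RPTEC by 2.5 peaks per library (exact permutation p = 0.00816, adjusted p = 1 over all genes tested). It was 1.92 to 2.92 when each library was left out in turn.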

How the results depend on the processing

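Both SETD2 comparisons gave 0 of the 9 genes past the adjustment under every alternative run. That outcome was nearly fixed in advance, because 4 against 4 libraries allow no exact permutation p under 0.0286 before adjustment. No called difference reversed. Uncalled SETD2 differences changed sign under some alternatives, in 786-O those of ECI1, DECR1, ACADVL and ACADS and in RPTEC that of ACADM. Between the cell lines, 2 of the genes passed, and 0 did in the upper 50% of each list, with equal peak numbers or with WT libraries alone, where 2 against 2 cannot go below p = 0.333 in the exact test. Scaling peaks, or covered bp (chosen after seeing the data), by the peaks of the same chromosome left 1, HSDL2. Leaving out each library gave 1 to 2. Of the other beta-oxidation genes 2 passed, and 0 did under those same first 3 alternatives, 1 with a minimum peak length of 288 bp, 5 by covered bp and 2 to 4 without single libraries. With the replicate number as a block 1 gene, HSDL2, passed and ECI1 did not (exact permutation test, adjusted p = 0.0611), and the SETD2 counts stayed at 0. Over genes, the deviations of same-numbered libraries had r from -0.115 to 0.263 in 786-O and from -0.261 to 0.291 in RPTEC. The highest were those of SETD2KO-2 with SETD2KO-1R in 786-O and of WT with SETD2KO-2 in RPTEC. Signs were mixed, so these values do not settle whether the numbers pair some libraries. Over all genes the 719 that differed between cell lines became 125 in the upper 50%, 430 with equal numbers, 1526 by covered bp and 0 with WT alone. With a peak required to cover at least 50% of a region, chosen after seeing the data, 4 regions in 786-O and 2 in RPTEC were called in at least 7 of 8 libraries. The cause of these shifts was not tested.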
